A study of Mus musculus with 4 samples.

Results

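The genes described here encode the enzymes, transporters and regulators that carry glucose through glycolysis and the pentose phosphate pathway, measured in group 1 innate lymphoid cells (ILC1s) of mouse liver. The set was a list of 35 genes chosen by function, from glucose uptake to the entry of pyruvate into the mitochondrion, with the transcription factor subunit gene Hif1a. Earlier results of these data were known when it was chosen. All 35 were found among the 18804 genes of the deposited table, and 32 had a mean of at least 1 FPKM (a fragment level scaled by gene length and library size), the level set for testing. Hk2, Aldoc and Rpia lay below it. ILC1s are liver-resident lymphocytes related to natural killer (NK) cells. The study compared ILC1s of mice labelled Cd200r knockout (replicates 1 and 2) with those of WT mice (replicates 1 and 3), all at homeostasis and 5 to 8 weeks old. Cd200r encodes an inhibitory receptor of the immunoglobulin superfamily. The sources used here do not give the allele, the sorting gates, or whether a replicate was 1 mouse or a pool. The p-values therefore cover only library-to-library spread, some of which may be technical.

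Glycolysis splits glucose into pyruvate in the cytosol, and lactate dehydrogenase and the monocarboxylate transporters turn pyruvate to lactate and export it. The pentose phosphate pathway branches off at glucose 6-phosphate and yields NADPH and ribose 5-phosphate. Many steps have several isozymes encoded by separate genes. In lymphocytes, activation is known to raise glucose uptake and the transcripts of glycolytic enzymes, in part through HIF-1 and Myc. The letters ACGTG are a form that the binding motifs of both can take.

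The checks on the libraries were as follows. Cd200r1 measured 110.7 and 103.7 FPKM in knockout and 161.5 and 173.3 FPKM in WT, so it was lower but still detected (log2 fold change −0.64, SE 0.09, adjusted p = 0.00451). Fold changes compare knockout with WT as differences of log2(FPKM + 1), a scale that shrinks fold changes at low levels, and adjusted p-values come from limma over all 9476 genes tested. The 8 ILC1 markers in the table summed to 4304 to 4308 FPKM in knockout and 4555 to 4760 FPKM in WT. Markers of other cells also differed. Over all genes tested, 2.4% rose and 0.939% fell at an adjusted p of at most 0.05 in limma. Summed macrophage markers (12 genes, none at 0 in all libraries) measured 653.1 and 966.4 FPKM in knockout against 247.4 and 226.2 FPKM in WT, and 8 of the 11 tested rose. Most of that sum was Lyz2, at 526.7 and 771.1 FPKM in knockout against 213.3 and 193.0 FPKM in WT. Vsig4, Clec4f and Cd5l did not pass, and Marco lay below the testing level. Summed conventional NK markers (9 genes) measured 283.3 and 592.3 against 101.2 and 98.4 FPKM, with 8 of 9 rising. Summed erythroid markers (8 genes) measured 12480 and 14030 against 24710 and 26810 FPKM, and all 7 tested fell. Summed hepatocyte markers (9 genes) measured 293.7 and 316.7 against 183.5 and 257.1 FPKM, with 1 of 7 rising, and summed neutrophil markers (5 genes, 1 at 0 in all libraries) measured 21.1 and 33.6 against 18.7 and 8.00 FPKM, with neither of the 2 tested passing. The 13 mitochondrial mRNAs summed to 12830 and 15140 against 6697 and 8481 FPKM, and 11 rose. Summed proliferation markers (8 genes) measured 287.7 and 278.6 against 164.3 and 176.2 FPKM, with 4 of 7 rising. Summed T and B cell markers (8 genes, most of the sum being Cd3g) measured 2144 and 2182 against 2401 and 2389 FPKM, with none passing. Summed endothelial markers (4 genes) measured 19.9 and 14.4 against 21.2 and 18.9 FPKM, and the 1 tested did not pass. The part of these cells and transcripts in the values below was not tested, except where a value is given.

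The Ldha share of lactate dehydrogenase did not overlap between genotypes, so the sequence upstream of the genes of the lactate step is shown first. The 250 bases before the first listed RefSeq start (GRCm38.p6) are given for Ldha (chr7:46845554-46845803, plus strand), Ldhb (chr6:142507958-142508207, minus strand) and Slc16a1 (chr3:104638414-104638663, plus strand), read 5′ to 3′ on the strand of the gene. No GENCODE M21 exon overlaps these windows. Capitals mark ACGTG or its reverse complement CACGT, which overlap in the palindrome CACGTG. Other forms of these binding motifs were neither searched nor marked.
Ldha: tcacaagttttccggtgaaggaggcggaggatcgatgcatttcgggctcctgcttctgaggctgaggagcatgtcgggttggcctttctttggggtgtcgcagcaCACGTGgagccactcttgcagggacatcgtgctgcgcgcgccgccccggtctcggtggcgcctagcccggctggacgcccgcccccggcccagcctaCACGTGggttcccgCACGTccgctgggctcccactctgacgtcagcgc
Ldhb: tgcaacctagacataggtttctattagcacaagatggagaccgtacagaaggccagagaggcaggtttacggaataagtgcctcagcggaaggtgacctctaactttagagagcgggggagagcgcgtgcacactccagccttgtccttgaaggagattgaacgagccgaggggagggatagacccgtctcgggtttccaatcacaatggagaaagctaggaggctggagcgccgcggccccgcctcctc
Slc16a1: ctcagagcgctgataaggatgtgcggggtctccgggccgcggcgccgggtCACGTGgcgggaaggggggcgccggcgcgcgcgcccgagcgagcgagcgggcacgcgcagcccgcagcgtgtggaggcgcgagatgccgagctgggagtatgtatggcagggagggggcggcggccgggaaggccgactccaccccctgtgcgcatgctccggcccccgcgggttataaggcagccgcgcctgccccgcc
The Ldha window holds CACGTG at 2 places and 1 further CACGT. The window of the second listed Ldha start and the Ldhb window hold none of these letters, and that of Slc16a1 holds 1 CACGTG. The window of Slc16a3, the remaining gene of this step, is not printed; it holds ACGTG on either strand at 2 places and no CACGTG, and its transcript overlapped between genotypes. Among the 34 members with an entry in the promoter table (Slc2a3 has none), 14 (41.2%) had ACGTG on either strand within 250 bases of at least 1 listed start. The same was true of 18.5% of all genes in the promoter table and of 25.9% of those expressed at 1 FPKM or more. CACGTG was found for 5 of the 34 members (14.7%), for 6.86% of all genes and for 9.91% of the genes at that level. Genes differ in their number of listed starts, so shares per start are also given. ACGTG on either strand was in 34.7% of the 49 member windows, 16.6% of all windows and 22.5% of those of genes at that level. For CACGTG these shares were 10.2%, 6.02% and 8.35%. Among tested members higher in knockout without overlap, Ldha, Slc16a1, Hk3, Pfkm, Pgam1, Pkm and Hif1a had ACGTG near a listed start. Eno1, Pfkl, Pfkp, Taldo1, Tkt and Pdk1, also higher without overlap, had none. Among those lower without overlap, Slc2a1 and Pfkfb3 had it, and Hk1, Gapdh, Ldhb and Pgd did not. A link between these letters and the fold changes was not tested. A match is a stretch of letters and not a measured binding site.

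**Figure D1:**
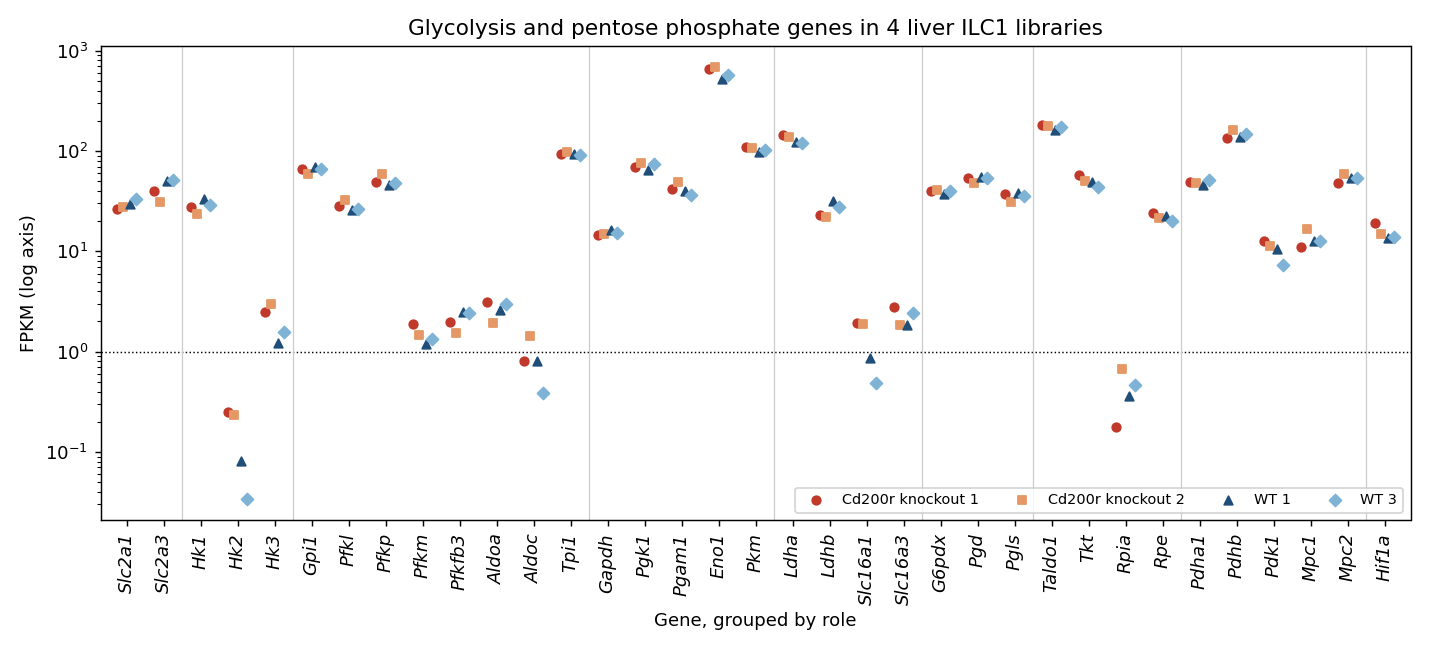
FPKM (log axis) of the 35 glycolysis and pentose phosphate genes in each of the 4 libraries, grouped by role between the grey lines, with the testing level of 1 FPKM dotted. Eno1 is highest at 528.2 to 680.2 FPKM, and Hk2 lowest at 0.0342 to 0.251 FPKM.

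Most steps of the pathway had well-expressed transcripts in both genotypes. Mean levels over the 4 libraries exceeded 100 FPKM for Eno1, Taldo1, Pdhb, Ldha and Pkm, lay between 10 and 100 FPKM for 21 genes and between 1 and 10 FPKM for 6. Eno1, encoding enolase 1, ranked 108th of all 18804 genes by mean level and supplied 27.8% to 32.2% of the summed FPKM of the 35 genes. That sum was 2075 and 2114 FPKM in knockout and 1902 and 1968 FPKM in WT, or 0.406% and 0.404% against 0.370% and 0.381% of all summed FPKM. The groups did not overlap in this sum. Without Eno1 the sums were 1421 and 1433 against 1374 and 1390 FPKM.

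None of the 32 genes tested passed an adjusted p of 0.05 in limma, where 3.33% of all 9476 genes did (2.4% higher and 0.939% lower in knockout). An unadjusted p under 0.05 was found for 6 of the 32 (18.8%), 4 with higher and 2 with lower values in knockout, against 15.5% of all genes. The 2 genotypes did not overlap in 20 of the 32 genes (13 higher and 7 lower in knockout), or 62.5%, where the share over all genes was 46.0% (24.3% higher and 21.7% lower). The median log2 fold change was 0.07 for these genes and 0.00 for all genes, and 21 of 32 were positive (18 with quantile normalization and 17 without WT replicate 1), against 50.5% of all genes. These counts include Slc16a1, higher in knockout, which reached the testing level only through the knockout libraries. The counts are a description, since the members were chosen with earlier results of these data known. The 95% interval of the fold change lay within 2-fold for 30 of the 32, the exceptions being Hk3 and Slc16a1, and for 90.8% of all genes. It lay within 1.5-fold for 22 of the 26 genes with at least 10 FPKM. In bulk RNA, fewer cells of a type and less RNA per cell cannot be told apart.

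**Figure D2:**
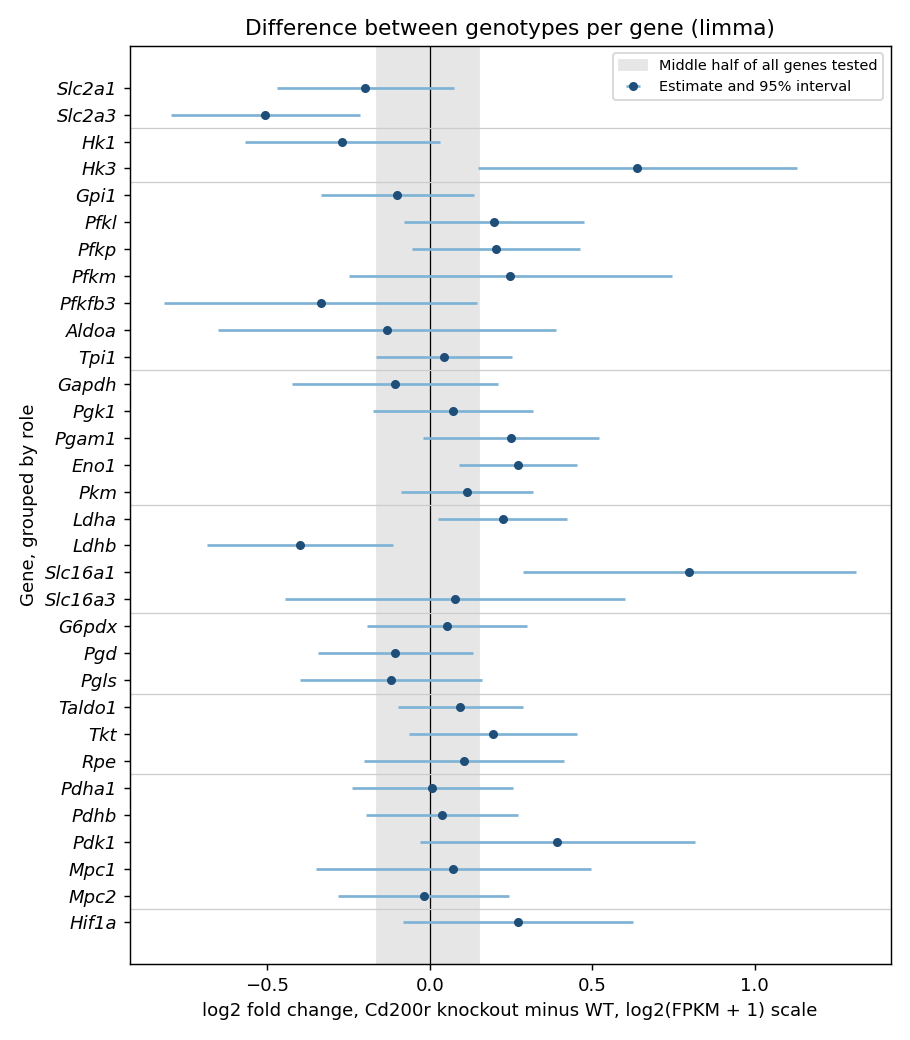
Log2 fold change (knockout minus WT) with its 95% interval from limma for the 32 tested genes, with the grey band covering the middle 50% of all genes tested. The intervals of Slc2a3, Hk3, Eno1, Ldha, Ldhb and Slc16a1 leave out 0 before adjustment, and none of these 6 passed the adjusted test.

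Glucose enters through the transporters GLUT1 (Slc2a1) and GLUT3 (Slc2a3), and both genes had lower values in knockout. Slc2a3 measured 39.7 and 31.2 FPKM in knockout and 49.8 and 51.0 FPKM in WT. Both knockout libraries lay below both WT libraries, and knockout replicate 2 was the lowest. Its log2 fold change of −0.51 (SE 0.13, 95% interval −0.80 to −0.22) was the most negative of the 32 and had the smallest p, with adjusted p = 0.0715. Without knockout replicate 1 it passed (−0.68, adjusted p = 0.0079), and without knockout replicate 2 it was −0.34. Slc2a1 measured 26.4 and 27.8 FPKM in knockout and 29.6 and 33.0 FPKM in WT (−0.20, SE 0.12, adjusted p = 0.490). GLUT3 supplied 60.1% and 52.8% of the FPKM of the pair in knockout and 62.7% and 60.8% in WT, so it was the larger part in every library.

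Hexokinase, which traps glucose as glucose 6-phosphate, was mostly Hk1. Hk1 measured 27.9 and 23.5 FPKM in knockout and 33.1 and 29.2 FPKM in WT (−0.27, SE 0.14, adjusted p = 0.384, and −0.15 without knockout replicate 2). Hk3, the isozyme typical of myeloid cells, measured 2.47 and 2.98 FPKM in knockout and 1.22 and 1.56 FPKM in WT. The genotypes did not overlap for either gene, with Hk1 lower and Hk3 higher in knockout. The log2 fold change of Hk3 was 0.64 (SE 0.22, 95% interval 0.15 to 1.13, adjusted p = 0.183). Hk1 supplied 91.1% and 88.0% of hexokinase FPKM in knockout and 96.2% and 94.8% in WT, while Hk3 supplied 8.06% and 11.2% against 3.54% and 5.08%. Summed macrophage markers differed in the same direction, at 809.7 ± 222 FPKM (SD, n = 2) in knockout and 236.8 ± 14.9 FPKM in WT, and their part in the Hk3 values was not tested. Hk2, the inducible isozyme, measured 0.251 and 0.232 FPKM in knockout and 0.0804 and 0.0342 FPKM in WT, too low for the test.

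Between glucose 6-phosphate and the triose phosphates, the isomerases had close values in the 2 genotypes, while the phosphofructokinase genes did not overlap. Gpi1, the isomerase gene, measured 66.4 and 59.0 FPKM in knockout and 68.6 and 65.8 FPKM in WT (−0.10, 95% interval −0.33 to 0.13). Tpi1, encoding triosephosphate isomerase, measured 93.04 and 97.3 against 94.25 and 90.3 FPKM (0.04, 95% interval −0.16 to 0.25). Phosphofructokinase commits sugar to glycolysis, and its platelet-type and liver-type genes were the main ones here. Pfkp measured 49.7 and 58.9 FPKM in knockout and 45.9 and 47.7 FPKM in WT (0.20, SE 0.12, adjusted p = 0.451). Pfkl measured 28.4 and 32.2 FPKM in knockout and 26.05 and 26.5 FPKM in WT (0.20, SE 0.13, adjusted p = 0.504). Both were higher in each knockout library than in either WT library, while the ratio of Pfkp to Pfkl was 1.75 to 1.83 over the 4 libraries. Without knockout replicate 2 the log2 fold changes were 0.08 for Pfkp and 0.11 for Pfkl. The muscle-type Pfkm supplied 1.58% to 2.38% of the family. Pfkfb3, whose product makes the activator fructose 2,6-bisphosphate, measured 1.98 and 1.55 FPKM in knockout and 2.51 and 2.45 FPKM in WT (−0.34, SE 0.22, adjusted p = 0.511).

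Among the genes of the lower steps, the part of glycolysis where ATP is made, Eno1 had the highest measured level. Eno1 measured 653.8 and 680.2 FPKM in knockout and 528.2 and 577.8 FPKM in WT, and the genotypes did not overlap. It was 1.21-fold higher by group means (log2 fold change 0.27, SE 0.08, 95% interval 0.09 to 0.45), with adjusted p = 0.121. Pgam1, the phosphoglycerate mutase gene, measured 41.9 and 49.5 FPKM in knockout and 39.7 and 36.6 FPKM in WT (0.25, SE 0.12, adjusted p = 0.366, and 0.13 without knockout replicate 2). Pkm, encoding both muscle-type pyruvate kinase isoforms, which a value for the whole gene does not separate, measured 110.6 and 108.1 against 98.7 and 103.0 FPKM (0.12, SE 0.09, adjusted p = 0.607). Pgk1, the phosphoglycerate kinase gene, measured 68.8 and 76.35 FPKM in knockout and 64.3 and 73.9 FPKM in WT, with overlap. Its log2 fold change of 0.07 turned to −0.0033 without knockout replicate 2 and to −0.0282 without WT replicate 1.

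Gapdh and Aldoa, abundant enzymes in most cells, were measured at low levels that call for caution. Gapdh measured 14.4 and 14.8 FPKM in knockout and 16.3 and 15.3 FPKM in WT, against 90.3 to 97.3 FPKM for Tpi1 just upstream. Aldoa measured 3.11, 1.94, 2.60 and 3.02 FPKM in knockout replicates 1 and 2 and WT replicates 1 and 3. In the longest GENCODE M21 coding transcript of Gapdh, 82.5% of all 50-base windows also occur, on either strand, in transcripts of other genes, 222 in number, of which 215 are annotated as pseudogenes. At 100 bases the share is 78.0%. A read from such a window has several equally good places, and the sources used here do not say how the authors counted such reads. The level of Gapdh is therefore uncertain, and the part of shared sequence in its low value was not tested.

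Other members share sequence too, so levels of different genes were not ranked closely. The share of 50-base windows found elsewhere was 72.2% for Eno1, 68.0% for Pgk1, 41.5% for Pgam1 and 34.4% for Pkm. Among the genes sharing windows with Eno1 is Eno1b, a retrogene copy, which measured 7.12 and 9.03 FPKM in knockout and 5.93 and 7.09 FPKM in WT, so the ratio of Eno1 to Eno1b was 75.3 to 91.9. A high share did not go with a low level in every case, since Eno1 was the highest member. For Aldoa the share was 13.5% at 50 bases and 0 at 100 bases. Among the 9 genes with a share of at least 25%, 6 had a positive log2 fold change and the median was 0.07. Among the other 23 tested genes 15 were positive and the median was 0.08.

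**Figure D3:**
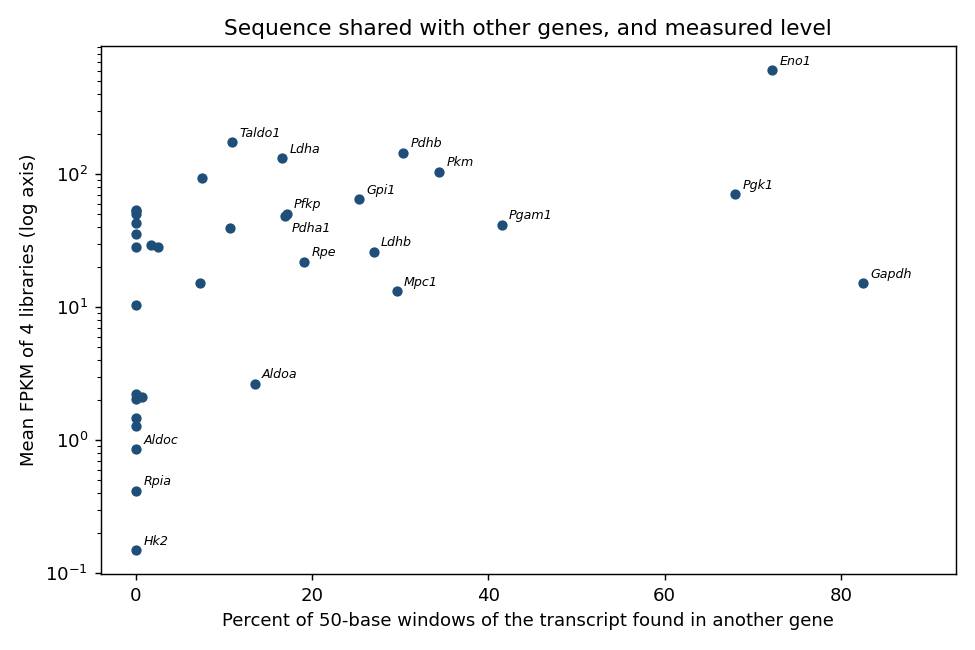
Mean FPKM over the 4 libraries (log axis) against the percent of 50-base windows of each gene's longest coding transcript that also occur in transcripts of other genes, 1 point per gene. Gapdh lies at 82.5% and 15.2 FPKM, Eno1 at 72.2% and 610.0 FPKM, and Aldoa at 13.5% and 2.67 FPKM.

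At the lactate step the 2 lactate dehydrogenase genes differed in opposite directions. Ldha, encoding the subunit that favours the making of lactate, measured 146.0 and 138.1 FPKM in knockout and 122.0 and 120.9 FPKM in WT. Ldhb, encoding the subunit typical of oxidative tissue, measured 23.1 and 21.8 FPKM in knockout and 32.0 and 27.9 FPKM in WT. Neither gene overlapped between the genotypes. The log2 fold change was 0.22 for Ldha (SE 0.09, 95% interval 0.03 to 0.42, adjusted p = 0.256). For Ldhb it was −0.40 (SE 0.13, 95% interval −0.69 to −0.11, adjusted p = 0.153). Within the pair, Ldha supplied 86.4% in both knockout libraries and 79.2% and 81.2% in the WT libraries. The ratio of Ldha to Ldhb was 6.33 and 6.34 in knockout and 3.82 and 4.33 in WT. The difference in share, 6.14 percentage points, ranged from 5.14 to 7.14 when single libraries were left out. With 2 libraries against 2, the smallest p of an exact permutation test is 0.333, and no test of the share was run. Ldhb shares 27.0% and Ldha 16.6% of 50-base windows with pseudogenes.

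The lactate exporters were scarce. Slc16a1, encoding MCT1, measured 1.91 and 1.89 FPKM in knockout and 0.872 and 0.487 FPKM in WT. Both WT libraries lay below the testing level of 1 FPKM, so the gene was tested only through its knockout values, and its difference is given as a description. The log2 fold change was 0.80 (SE 0.23, 95% interval 0.29 to 1.31, adjusted p = 0.107), and ran from 0.28 with a pseudocount of 5 to 1.41 with a pseudocount of 0.1. Slc16a3, encoding MCT4, measured 2.82 and 1.86 FPKM in knockout and 1.86 and 2.43 FPKM in WT. MCT1 supplied 40.4% and 50.4% of the pair in knockout and 31.9% and 16.7% in WT.

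**Figure D4:**
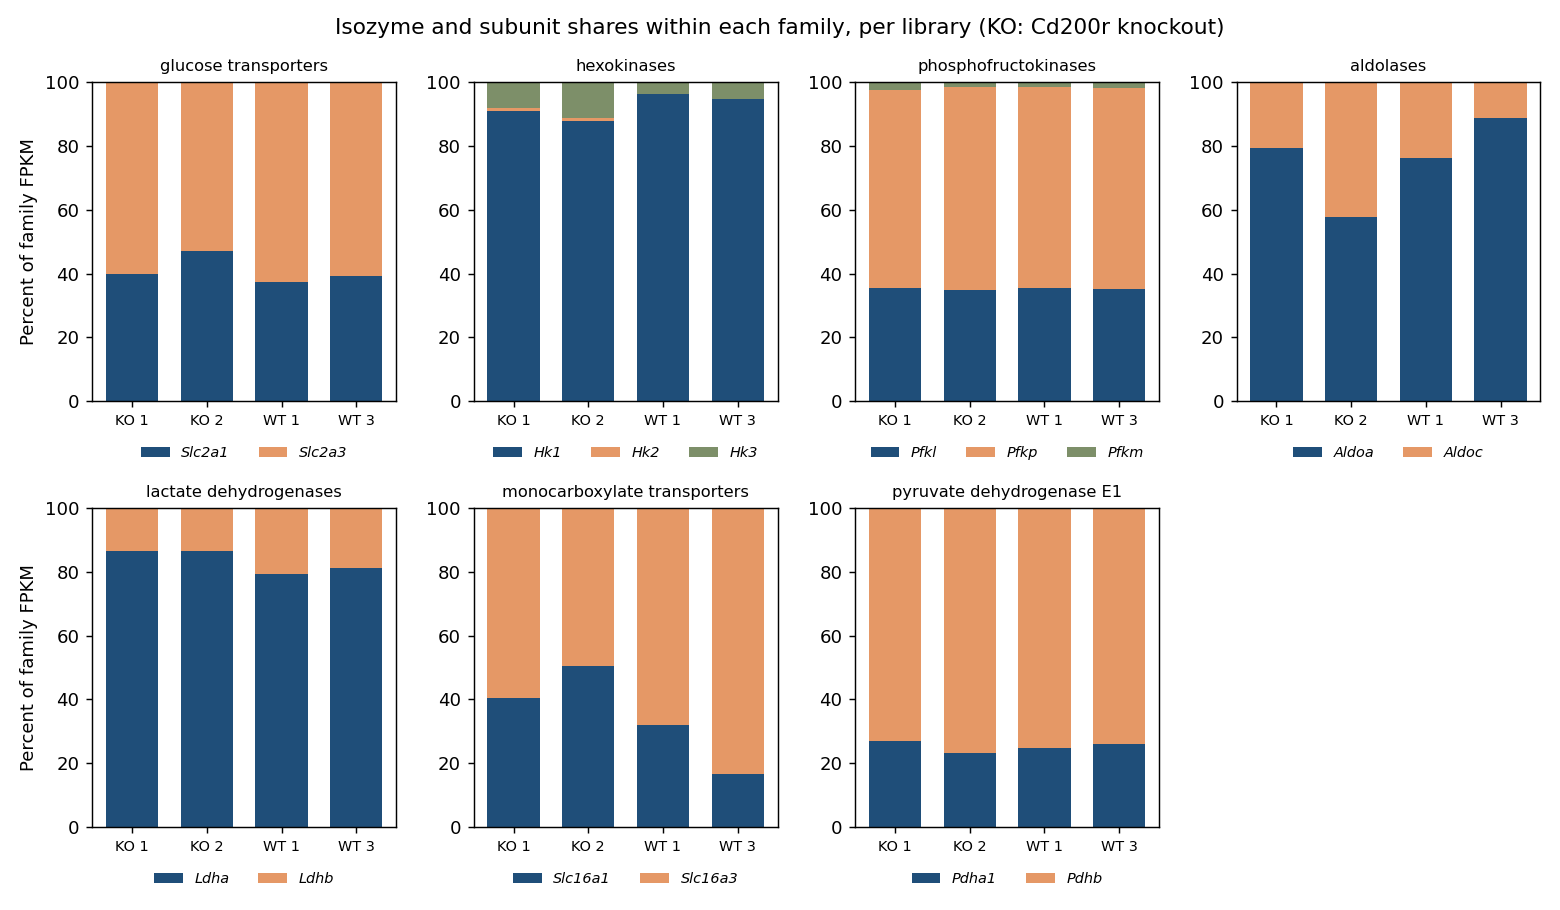
Percent of the summed FPKM of each family supplied by each gene, as stacked bars from 0 to 100 for each library (KO, Cd200r knockout). The Ldha share is 86.4% in both knockout libraries against 79.2% and 81.2% in WT, while the Pfkp share stays between 62.1% and 63.6%; Pdha1 and Pdhb are subunits of 1 enzyme rather than isozymes.

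The oxidative arm of the pentose phosphate pathway, which makes NADPH, had close values in the 2 genotypes. G6pdx, its entry enzyme, measured 40.0 and 40.5 FPKM in knockout and 37.5 and 40.1 FPKM in WT (0.05, 95% interval −0.19 to 0.30). Pgls, the lactonase gene, measured 36.9 and 31.1 against 38.4 and 35.5 FPKM (−0.12, 95% interval −0.40 to 0.16). Pgd, encoding the second NADPH-producing enzyme, measured 53.6 and 48.2 against 55.2 and 54.4 FPKM (−0.11, 95% interval −0.35 to 0.13). None of these 3 intervals reached 1.5-fold.

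In the non-oxidative arm, which exchanges carbon between ribose and glycolytic sugars, transaldolase was the most abundant transcript. Taldo1 measured 182.5 and 178.4 FPKM in knockout and 163.7 and 174.5 FPKM in WT (0.09, SE 0.09, adjusted p = 0.671). Tkt, the transketolase gene, measured 57.1 and 49.8 FPKM in knockout and 49.0 and 44.1 FPKM in WT (0.19, SE 0.12, adjusted p = 0.474, and 0.10 without knockout replicate 1). In both genes each knockout library exceeded both WT libraries. Rpe, the epimerase gene, overlapped, at 24.4 and 21.3 against 22.4 and 19.9 FPKM. Rpia, encoding the isomerase that forms ribose 5-phosphate, measured only 0.178 to 0.672 FPKM.

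The genes that bring pyruvate into the mitochondrion and oxidise it mostly overlapped. Mpc1 and Mpc2 encode the pyruvate carrier. Mpc2 measured 48.3 and 59.0 FPKM in knockout and 54.1 and 54.2 FPKM in WT, and Mpc1 10.99 and 16.55 against 12.8 and 12.8 FPKM. The knockout libraries lay on either side of the WT libraries for both carrier genes. Pdha1 and Pdhb, encoding the E1 subunits of pyruvate dehydrogenase, had log2 fold changes of 0.01 (95% interval −0.24 to 0.25) and 0.04 (95% interval −0.20 to 0.27). Pdk1, whose product inhibits that enzyme, measured 12.6 and 11.4 FPKM in knockout and 10.6 and 7.38 FPKM in WT (0.39, SE 0.19, adjusted p = 0.366), and was 0.16 without WT replicate 3 and 0.63 without WT replicate 1. Hif1a, encoding the oxygen-regulated subunit of HIF-1, measured 19.0 and 14.8 FPKM in knockout and 13.7 and 13.8 FPKM in WT (0.27, SE 0.16, adjusted p = 0.464). Knockout replicate 1 was the highest; without it the value was 0.10, and without knockout replicate 2 it was 0.44.

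Genes around the pathway were examined as 8 lists with 116 genes, also chosen with earlier results of these data known. Of these genes, 86 reached 1 FPKM and 5 passed the test, 1 rising and 4 falling, against 3.33% of all genes. Among 12 tested isozymes and side enzymes of glycolysis, Bpgm and Fbp1 fell. Bpgm, the bisphosphoglycerate mutase of red cells, measured 45.7 and 53.4 FPKM in knockout and 96.5 and 110.5 FPKM in WT (−1.05, SE 0.12, adjusted p = 0.000941). It is also an erythroid marker, and the other 6 erythroid markers tested fell with it. Fbp1, encoding the gluconeogenic fructose bisphosphatase, measured 0.495 and 1.503 FPKM in knockout and 3.14 and 4.12 FPKM in WT (−1.25, SE 0.28, adjusted p = 0.0355). Its knockout mean of 0.999 FPKM lay below the testing level, so it was tested only through its WT values. It passed in 4 of 11 alternatives, over which the log2 fold change ran from −1.92 to −0.53, and was lost, among others, without knockout replicate 1 (−0.88) or WT replicate 3 (−1.10).

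Among 12 tested HIF targets outside glycolysis, Hilpda rose, 0 fell, and the median log2 fold change was 0.15. Hilpda, encoding an inhibitor of lipid droplet breakdown, measured 56.8 and 64.5 FPKM in knockout and 27.2 and 32.6 FPKM in WT. The genotypes did not overlap, and its log2 fold change was 0.998 (SE 0.13, adjusted p = 0.00229). Leaving out single libraries gave 0.87 to 1.12, and it passed each time. The lipid droplet gene Plin2 had 0.43 (SE 0.14, adjusted p = 0.165) and Ankrd37 0.57 (SE 0.22, adjusted p = 0.249). Macrophages carry lipid droplets too, their markers were higher in the same libraries, and the part of these cells in the Hilpda values was not tested. Of 5 tested HIF regulators none passed in limma, 1 had an unadjusted p under 0.05 (15.5% of all genes did), and Arnt, the partner subunit of HIF-1, had −0.38 (SE 0.17, adjusted p = 0.311).

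Among 9 tested upstream regulators Mlxip fell, and among 15 genes of the glycogen, hexosamine and serine branches Pygl fell. Mlxip, encoding the glucose-sensing transcription factor MondoA, measured 15.3 and 11.8 FPKM in knockout and 27.2 and 21.8 FPKM in WT (−0.81, SE 0.17, adjusted p = 0.0256). Txnip, encoding an inhibitor of glucose uptake, measured 74.8 and 57.7 FPKM in knockout and 87.7 and 79.05 FPKM in WT (−0.34, SE 0.13, adjusted p = 0.238). Arrdc4, of the same list, differed in the other direction. It measured 9.64 and 7.83 FPKM in knockout and 6.24 and 6.57 FPKM in WT (0.39, SE 0.18, adjusted p = 0.344). A link of Txnip or Arrdc4 to the Mlxip level was not tested. Rheb, encoding the GTPase that activates mTORC1, had 0.25 (SE 0.11, adjusted p = 0.311). The Mlxip call was lost when knockout replicate 2 (−0.64) or WT replicate 1 (−0.66) was left out. Pygl, encoding the liver-type glycogen phosphorylase, measured 26.2 and 25.1 FPKM in knockout and 37.0 and 37.1 FPKM in WT (−0.52, SE 0.12, adjusted p = 0.0409). Its call was lost when any library but knockout replicate 1 was left out (−0.48 to −0.52). In the same list Gfpt1, the entry enzyme of hexosamine synthesis, had 0.64 (SE 0.22, adjusted p = 0.176) and Shmt1, a serine hydroxymethyltransferase gene tested only through its knockout values, 0.66 (SE 0.23, adjusted p = 0.181).

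The remaining lists gave no gene past the test, and 15.5% of all genes had an unadjusted p under 0.05. Of 19 tested genes of the citric acid cycle, 1 had an unadjusted p under 0.05 in limma, and the 95% interval lay within 1.5-fold for 18. Their median log2 fold change was 0.04. Of 6 tested genes of the pyruvate dehydrogenase complex, its kinases and its phosphatases, 3 had an unadjusted p under 0.05, with Pdhx at 0.50 (SE 0.16, adjusted p = 0.145) and Dlat at 0.36 (SE 0.15, adjusted p = 0.275) higher in both knockout libraries, and Pdp1 at −0.40 (SE 0.17, adjusted p = 0.294) lower. Of 8 other pentose phosphate and ribose genes, 3 had an unadjusted p under 0.05, namely H6pd (−0.54, SE 0.20, adjusted p = 0.222), Dera (0.39, SE 0.15, adjusted p = 0.249) and Prps1 (0.27, SE 0.12, adjusted p = 0.316).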

How the data were processed

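Per the labels' protocols, TRIzol-extracted RNA of liver ILC1s went through full-length cDNA amplification and a transposase-based library kit, which does not mark strand. The build mm10 and the tools DESeq2, HTSeq, HISAT2, fastp and R 3.2.0 are named, without roles, per the submitters' processing notes. The authors deposited FPKM per gene and library, with no counts, and summed FPKM per library was 511400 to 523700; the sources used here do not give the read depth, so no counting intervals are printed. The 9476 genes averaging 1 FPKM or more were tested as log2(FPKM + 1), with a two-sided limma 3.58.1 model with mean-variance trend in R 4.3.3, no covariate, and Benjamini-Hochberg adjustment over all of them (threshold 0.05). On 20 simulated data sets of 9476 genes this recovered 74.0% of genes changed 2-fold and 99.6% of those changed 4-fold, with 5.33% of calls false. The simulated noise was normal, with variances drawn from the fitted limma model itself. These shares therefore check the procedure and do not measure errors in the real libraries. Changes smaller than 2-fold were not simulated. Isozyme shares are FPKM divided by the family's sum. Shared windows came from GENCODE M21 transcripts, promoters and coordinates from RefSeq GRCm38.p6, to which all 35 members matched by Entrez identifier. Alternatives changed the pseudocount, filter, scaling, trend or libraries. Full statistics were printed for the 6 members with the smallest p, and, in each other list, the genes passing the test and otherwise up to 3 with the smallest p. Outside this rule, Plin2, Ankrd37, Txnip, Arrdc4, Rheb, Gfpt1 and Shmt1 were also printed, from lists with a passing gene. The members and lists were chosen with earlier results of these data known. 1 gene that this rule names is not reported here.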

Additional observations from a re-analysis of the deposited data

How the results depend on the processing

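No member passed in limma except Slc2a3 (1 gene) without knockout replicate 1, so leaving out single libraries gave 0 to 1. The median log2 fold change of the members stayed between 0.03 and 0.10. Over all genes, 316 passed, 0 when genes below 1 FPKM were also tested (1898 of 18155 with an unadjusted p under 0.05, and 7 of the 35 members) and 70 without the mean-variance trend (1304 and 4), while leaving out single libraries gave 217 to 553, the highest without knockout replicate 1. In the lists around the pathway 5 genes passed, against 0 with no filter, 0 without the trend and 3 as TPM. With single libraries left out, the log2 fold change ran from −1.16 to −0.94 for Bpgm and from 0.87 to 1.12 for Hilpda. It ran from −1.62 to −0.88 for Fbp1, from −0.98 to −0.64 for Mlxip and from −0.55 to −0.48 for Pygl. The share of the members in summed FPKM was 0.0287 percentage points higher in knockout, 0.0162 with quantile normalization and 0.0232 to 0.0342 with single libraries left out. Quantile normalization turned the log2 fold changes of Tpi1 (−0.0116), Pdha1 (−0.0196) and Pdhb (−0.0464), and Pdha1 also turned as TPM (−0.000593) and when rescaled without globin and mitochondrial genes (−0.0185). With single libraries left out, Aldoa ranged from −0.37 to 0.11, Pgk1 from −0.0282 to 0.17, Slc16a3 from −0.13 to 0.28, Pgls from −0.24 to 0.000612, Pdha1 from −0.0825 to 0.10, Pdhb from −0.0932 to 0.17, Mpc1 from −0.20 to 0.35 and Mpc2 from −0.16 to 0.12. The cause of these shifts was not tested. The other 23 members kept their direction in every alternative that gave them a value. No paired analysis was possible because the genotypes share only replicate number 1. What depth limits is not known, since FPKM keeps no read counts here.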
